A study of Mus musculus with 6 samples.

Results

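Chromatin remodelling genes were followed in mouse embryonic stem (ES) cells with and without a working Tex19.1 gene. The genes were chosen by symbol alone, without any measured value. They are those whose symbol starts with Smarc, Ino80 or Actl6, those named Chd, Brd or Mta with a digit, the Arid1 and Arid2 genes, and Mbd2, Mbd3, Gatad2a, Gatad2b, Hells and Atrx. The rule found 46 of the 10128 genes of the authors' deposited table. The cells derive from the E14Tg2a line of 129/Ola background and were cultured with foetal calf serum and medium conditioned with leukaemia inhibitory factor. RNA was sequenced from 3 libraries of each genotype: Tex19.1-/-, and Tex19.1+/- as the control, which itself lacks 1 copy of the gene. Nothing in the labels says whether the libraries of a genotype come from separate clones or cultures, so p-values measure only the spread between these libraries, which may be technical.

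Remodelling complexes use the energy of ATP to slide, evict or exchange nucleosomes, and so set which DNA other proteins can reach. The BAF complex (the mammalian SWI/SNF complex) opens chromatin and in ES cells has a characteristic subunit make-up called esBAF, built around Smarca4, Arid1a, Smarcc1, Smarcd1 and Actl6a. NuRD joins a CHD-family ATPase to histone deacetylases and to methyl-binding domain proteins, and restrains transcription of genes that ES cells must be able to change on differentiation. ISWI complexes space nucleosomes evenly, and INO80 moves nucleosomes and acts on those that hold the histone variant H2A.Z. Tex19.1 is active in pluripotent cells, germ cells and the placenta, and its product partners the ubiquitin ligase UBR2.

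Every value below rests on 1 log2 fold change, 1 mean level and 1 p-value per gene from the authors' deposited table; values of single libraries and their depth were not analysed here. A positive log2 fold change is read as higher in Tex19.1-/- cells, a direction taken from Tex19.1 itself (-6.92 in the authors' deposited table), so this gene does not check the labels. A gene is said to have risen or fallen where its adjusted p-value there is under 0.05. Levels are read counts scaled to library size (CPM), as a mean over the libraries. The pluripotency markers were present: all 10 listed genes were measured, at 147 to 1566 CPM, and 4 rose and 3 fell in the authors' deposited table, with a median log2 fold change of 0.03. Markers of another cell type moved with the genotype: all 12 measured endoderm genes of 15 listed fell in the authors' deposited table, by log2 fold changes from -2.93 for Cubn to -0.56 for Lamb1, at a summed mean level of 773 CPM. In bulk RNA, fewer cells of a type and less RNA per cell cannot be told apart. The part of these cells in the values below was not tested.

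The remodelling genes changed about as often as genes in general and by small amounts. Of the 46, 12 rose, 10 fell and 24 did not pass in the authors' deposited table. This is 47.8% of the members against 51.7% of all genes. Rises took in 25.2% of all genes and falls 26.5%. The median log2 fold change was 0.00 for the members and 0.00 for all genes, and the median absolute log2 fold change was 0.09 against 0.11. No member changed 2-fold: the log2 fold changes of the authors' deposited table ran from -0.55 for Ino80d to 0.33 for Chd7. Calls whose log2 fold change reached 0.2 in size came to 10 members, 21.7% of them, against 29.2% of all genes. The standard error that each p-value implies under a normal approximation lay between 0.04 and 0.07 on the log2 scale for the members.

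**Figure D1:**
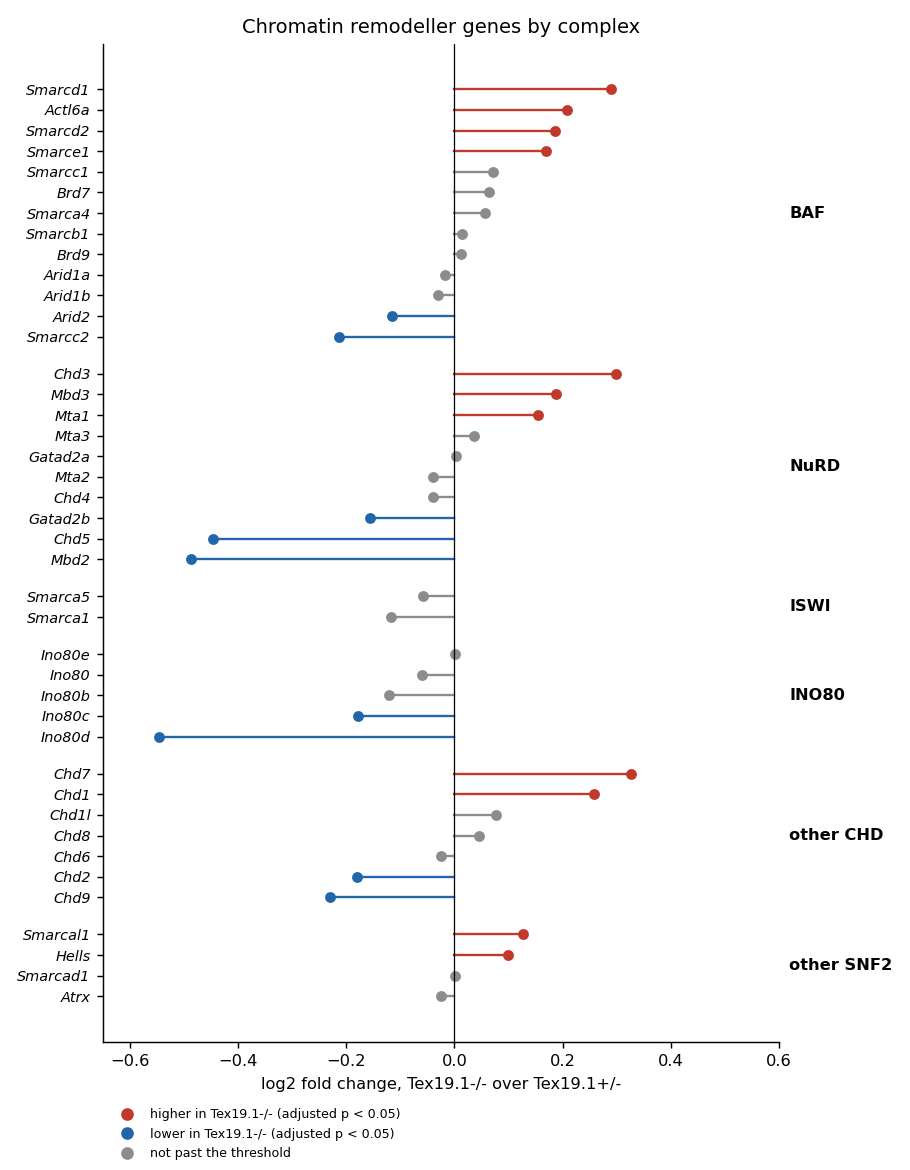
Log2 fold change (Tex19.1-/- over Tex19.1+/-, x axis) of 41 members, grouped by complex (the bromodomain genes outside BAF are not drawn); red points rose, blue points fell and grey points did not pass an adjusted p of 0.05. NuRD and the other CHD genes hold changes in both directions, the 2 calls among INO80 genes are falls, and no ISWI gene passed. Actl6a, which INO80 shares with BAF, is drawn under BAF and rose.

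The members are well expressed genes, with a median of 103 CPM against 33.0 CPM for all genes of the authors' deposited table. The plot of fold change against mean level shows that the members farthest from 0 are mostly not the highest ones. Genes in general show this too: a log2 fold change of 0.2 or more in size was held by 29.2% of all genes. The share was 23.9% for genes of at least 16 CPM and 16.8% for those of at least 200 CPM.

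**Figure D2:**
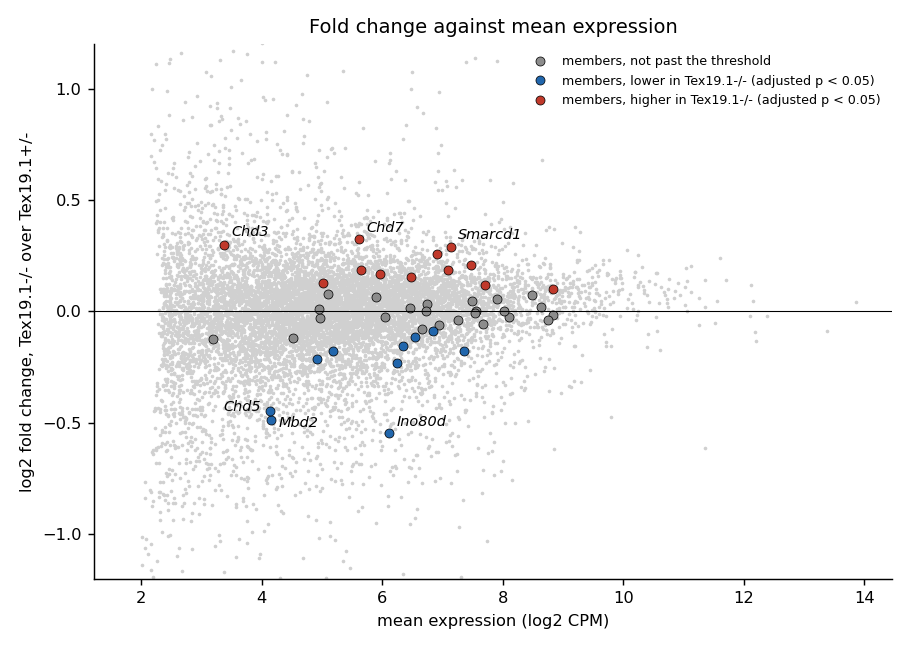
Log2 fold change (y axis) against mean expression in log2 CPM (x axis) for all genes (light grey) and the 46 members (coloured by call); 93 genes lie outside the y axis. The largest falls, Ino80d, Mbd2 and Chd5, stand at 69.2, 17.8 and 17.6 CPM, and the members at the right end lie close to 0.

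Among the 13 BAF genes, 4 rose, 2 fell and 7 did not pass, with a median log2 fold change of 0.06. The calls are 46.2% of the group, beside 51.7% of all genes. The ATPase and the ARID1 subunits did not pass. Smarca4, the ATPase also called BRG1, was at 0.06 in the authors' deposited table (adjusted p = 0.206) with a mean of 239 CPM. Arid1a, the DNA-binding subunit that defines the canonical form, was at -0.02 (adjusted p = 0.723) at 455 CPM, and its paralog Arid1b at -0.03 (adjusted p = 0.597) at 31.4 CPM, in the authors' deposited table. Smarcb1, a core subunit that contacts the nucleosome, was at 0.01 there. The rises were in Smarcd1, Actl6a, Smarcd2 and Smarce1, which accompany the ATPase.

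Smarcd1 (BAF60A), a subunit that links the complex to transcription factors, had the largest rise of the group. It lies on the plus strand of chromosome 15 from 99702129 to 99713991 (GRCm38), and in the authors' deposited table its log2 fold change was 0.29, or 22.3% higher, at a mean of 140 CPM (adjusted p = 5.46e-15). Its paralog Smarcd2 (BAF60B) stood at 0.19 in the authors' deposited table (adjusted p = 4.15e-05). Smarcd2 lies on chromosome 11, in a region where the 20 closest measured genes had a median log2 fold change of 0.17; relative to that median it was at 0.01 and did not pass. Actl6a (BAF53A), an actin-related subunit that BAF shares with INO80 and with the SRCAP and TIP60 complexes, stood at 0.21, or 15.5% higher, in the authors' deposited table (adjusted p = 2.14e-08). Actl6a overlaps Mrpl47 on the opposite strand over 1577 bases of their gene spans, and Mrpl47, named for this overlap, was at 0.17 in the authors' deposited table. The library kit keeps strand, but the strand setting of the counting is not given in the sources used here, so reads of the 2 genes may not be told apart. The same holds for Smarcc1 with Dhx30, over 123 bases, and Ino80e with Hirip3, over 406 bases. Smarce1 (BAF57), an HMG-box subunit, stood at 0.17 in the authors' deposited table (adjusted p = 3.26e-05).

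The paralogs Smarcc1 and Smarcc2, which form the scaffold of the complex, had values of opposite sign. Smarcc2 (BAF170), a subunit that the ES cell form largely lacks, fell by 13.8% in the authors' deposited table, a log2 fold change of -0.21 (adjusted p = 0.000116). Smarcc1 (BAF155) was at 0.07 there (adjusted p = 0.0872). Per kilobase of exon, Smarcc1 had 45.6 CPM and Smarcc2 5.42. Whether the fold changes of the 2 genes differ from each other was not tested. The other call was Arid2, the DNA-binding subunit of the PBAF form, which was at -0.12 in the authors' deposited table (adjusted p = 0.00462). Brd7, also of PBAF, and Brd9, of the non-canonical form, did not pass, at 0.06 and 0.01 in the authors' deposited table.

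Other BAF subunits, from a list that the symbol rule does not reach, had 4 falls and no rise among 12 measured genes (0 higher at an unadjusted p of 0.05 in the authors' edgeR test). The partner lists were chosen with earlier results of these data known. The calls here are 33.3% of the list, beside 51.7% of all genes called and 26.5% that fell. Bicral, a subunit of the non-canonical form, was at -0.27 in the authors' deposited table (adjusted p = 9.44e-12). Next came Bcl7a at -0.15, Dpf2, which reads acetylated histones, at -0.14, and Ss18 at -0.10, all lower in the authors' deposited table. The PBAF subunit genes Pbrm1 at 0.04 and Phf10 at -0.06, chosen after their values were seen, did not pass there. Over the 25 measured BAF genes of both lists, 4 rose and 6 fell, and the median log2 fold change was 0.03.

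The sequences just before the transcription starts of 5 members follow. They show 3 BAF genes that rose and, for contrast, the NuRD ATPase gene that fell and its paralog that did not pass. Each is the run of 250 bases up to the start, 5′ to 3′ on the gene's strand, from RefSeq's GRCm38.p6 table, first listed start. Capitals mark the GC box GGGCGG or its reverse complement CCGCCC, and the TATA box TATAAA. Smarcd1 is chr15:99702037-99702286 on the plus strand, Actl6a chr3:32708296-32708545 on the plus strand, and Smarcd2 chr11:106267633-106267882 on the minus strand. Chd5 is chr4:152338401-152338650 and Chd4 chr6:125095731-125095980, both on the plus strand. The listed starts of Smarcd1, Actl6a and Smarcd2 lie inside the spans that GENCODE M21 gives these genes, so these windows overlap the genes in whole or in part.
Smarcd1: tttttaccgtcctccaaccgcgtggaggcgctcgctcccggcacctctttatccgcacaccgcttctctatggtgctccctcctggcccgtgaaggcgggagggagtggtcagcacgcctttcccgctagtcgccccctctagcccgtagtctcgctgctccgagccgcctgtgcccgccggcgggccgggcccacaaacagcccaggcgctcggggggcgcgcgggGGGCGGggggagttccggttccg
Actl6a: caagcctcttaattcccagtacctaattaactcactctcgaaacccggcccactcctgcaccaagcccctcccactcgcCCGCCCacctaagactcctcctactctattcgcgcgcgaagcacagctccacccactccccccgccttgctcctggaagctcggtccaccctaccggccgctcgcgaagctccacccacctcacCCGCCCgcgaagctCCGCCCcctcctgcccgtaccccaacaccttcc
Smarcd2: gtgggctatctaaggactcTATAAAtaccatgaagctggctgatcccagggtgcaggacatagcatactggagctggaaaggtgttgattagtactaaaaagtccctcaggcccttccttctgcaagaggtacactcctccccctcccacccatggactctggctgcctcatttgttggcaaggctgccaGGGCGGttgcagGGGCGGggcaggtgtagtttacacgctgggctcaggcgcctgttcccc
Chd5: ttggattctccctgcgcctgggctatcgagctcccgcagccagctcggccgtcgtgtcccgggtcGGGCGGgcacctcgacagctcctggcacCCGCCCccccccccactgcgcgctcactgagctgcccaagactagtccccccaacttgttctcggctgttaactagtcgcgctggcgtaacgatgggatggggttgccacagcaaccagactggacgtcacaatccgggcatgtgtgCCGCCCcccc
Chd4: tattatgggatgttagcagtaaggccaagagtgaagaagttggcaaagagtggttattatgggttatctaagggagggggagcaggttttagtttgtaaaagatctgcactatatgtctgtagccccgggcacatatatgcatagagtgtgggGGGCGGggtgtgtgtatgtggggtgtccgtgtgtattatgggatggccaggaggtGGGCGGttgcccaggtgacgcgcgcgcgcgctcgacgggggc

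All 5 windows hold a GC box, the motif that SP and KLF factors bind: 1 copy before Smarcd1, 3 before Actl6a, 2 before Smarcd2, 3 before Chd5 and 2 before Chd4. The windows of genes that rose and of the gene that fell thus share this motif. Smarcd2 alone of the 5 has a TATA box match. Windows were found for 34 of the 46 members, and 28 of these, or 82.4%, hold a GC box on either strand, against 63.4% of the 7640 measured genes with a window and 32.7% of all 32851 windows. The other motifs were searched on both strands: the CCAAT box was in 29.4% of members' windows and 37.4% of measured genes' windows, the ETS motif CCGGAAGT in 5.88% and 6.87%, the NRF1 motif GCATGCGC in 8.82% and 5.33%, and the E box CACGTG in 2.94% and 9.12%. The median count of CG dinucleotides was 19.5 in members' windows and 17 in those of measured genes. These matches describe letters in the window only.

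NuRD held the widest spread, with 3 rises and 3 falls among its 10 genes and a median log2 fold change of -0.02. The calls are 60.0% of these genes, beside 51.7% of all genes, of which 25.2% rose and 26.5% fell. The 3 ATPase paralogs of NuRD gave 3 different outcomes in the authors' deposited table: Chd3 rose, Chd4 did not pass and Chd5 fell. Chd4, the ATPase that ES cells mainly use, was at -0.04 in the authors' deposited table (adjusted p = 0.398) with 431 CPM. Chd5, better known from neurons and testis, lies on chromosome 4 from 152338651 to 152390194 and fell by 26.6% in the authors' deposited table, a log2 fold change of -0.45 (adjusted p = 6.06e-14). Chd3 stood at 0.30, or 23.1% higher, in the authors' deposited table (adjusted p = 7.46e-05). Both changed paralogs are weakly expressed: per kilobase of exon Chd4 had 53.7 CPM, Chd5 1.84 and Chd3 1.22.

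The methyl-binding domain subunits, which occupy the same place in NuRD and exclude each other, had changes of opposite sign. Mbd2, which binds methylated DNA, lies on chromosome 18 from 70568189 to 70626131 and fell by 28.7% in the authors' deposited table, a log2 fold change of -0.49 (adjusted p = 1.62e-18). Mbd3, the form that ES cells need to leave self-renewal, stood at 0.19, or 13.9% higher, in the authors' deposited table (adjusted p = 7.72e-05). Mbd3 was also the higher in level, with 68.4 CPM per kilobase of exon against 5.55 for Mbd2. The difference between the 2 fold changes was not tested.

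The paralogs of the other NuRD subunits did not all change alike. Of the Mta genes, which hold the deacetylases in the complex, Mta1 stood at 0.16 in the authors' deposited table (adjusted p = 0.000445), and Mta2 at -0.04 and Mta3 at 0.04 did not pass. Gatad2b, a bridging subunit (p66-beta), was at -0.16 in the authors' deposited table (adjusted p = 8.08e-05), and Gatad2a (p66-alpha) at 0.00 (adjusted p = 0.974). Among 11 measured NuRD partners 3 rose and none fell, also at an unadjusted p of 0.05 in the authors' edgeR test (0 lower). Of all genes 51.7% were called, 25.2% as higher and 26.5% as lower, against 27.3% of this list, the 3 genes that rose. They were Sall4, a zinc finger protein of ES cells that binds NuRD, at 0.12, the histone chaperone gene Rbbp4 at 0.11, and Zfp219 at 0.09 in the authors' deposited table. Cdk2ap1 was at 0.08 there (adjusted p = 0.0735). The deacetylase genes Hdac1 at -0.04 and Hdac2 at -0.05, chosen after their values were seen, did not pass in the authors' deposited table.

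**Figure D3:**
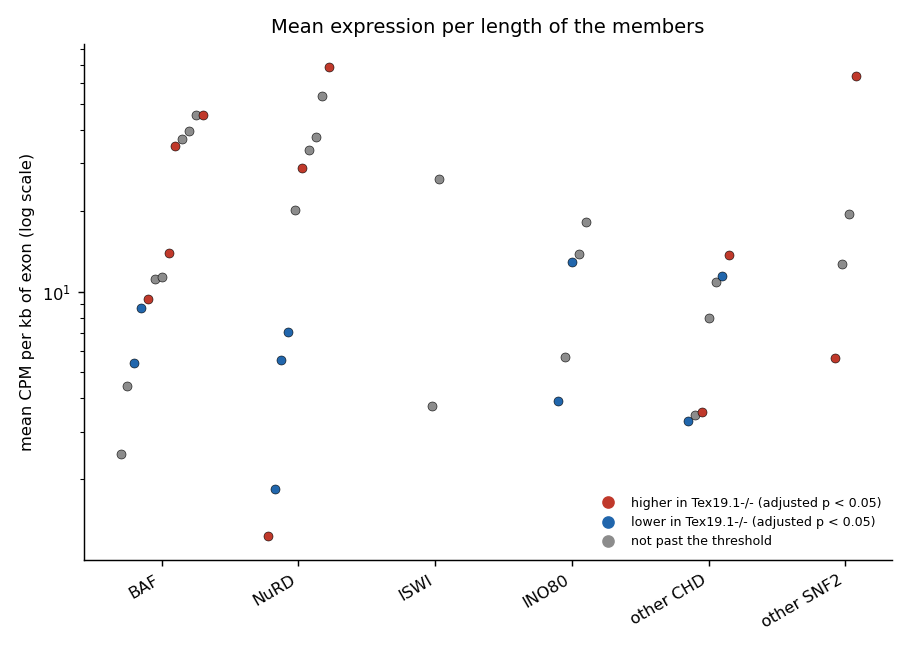
Mean CPM per kilobase of exon (log scale, y axis) of the same 41 members by complex, 1 point per gene, coloured by call. In NuRD the genes that changed by more than 0.2, Mbd2, Chd5 and Chd3, are the 3 lowest points, and Mbd3, which rose by less, is the highest.

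The 2 ISWI ATPase genes did not pass in the authors' edgeR test, 1 of them with an unadjusted p under 0.05 (Smarca1, p = 0.0349). Smarca5 (SNF2H), the main ISWI ATPase of ES cells, was at -0.06 in the authors' deposited table (adjusted p = 0.220) with 204 CPM. Smarca1 (SNF2L), on the X chromosome, was at -0.12 there (adjusted p = 0.0649) with 23.0 CPM. The 20 measured genes closest to Smarca1 had a median of 0.17, and relative to it Smarca1 was at -0.29 and passed as lower. The ISWI partners held a larger change: of 11 measured, 2 rose and 1 fell, or 27.3%, beside 51.7% of all genes. Baz1a (ACF1), which pairs with SNF2H in the nucleosome-spacing complexes ACF and CHRAC, was at -0.60 in the authors' deposited table (adjusted p = 2.52e-37), at 33.6 CPM. Chrac1, a small histone-fold subunit of CHRAC, rose with a log2 fold change of 0.21 and Baz2b with 0.24 in the authors' deposited table, and Cecr2 was at 0.10 (adjusted p = 0.0693). The other 7 partners lay between -0.08 and 0.05 in the authors' deposited table.

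Of the 5 measured INO80 genes 2 fell and none rose (0 higher at an unadjusted p of 0.05 in the authors' edgeR test), and their median log2 fold change was -0.12. The 40.0% called is not above the 51.7% of all genes, of which 25.2% rose and 26.5% fell. Actl6a, which INO80 shares with BAF, is counted under BAF only. It rose, at 0.21 in the authors' deposited table (adjusted p = 2.14e-08), so the absence of a rise here depends on that grouping. Ino80d, a metazoan-specific subunit, had the largest change of all 46 members. It lies on the minus strand of chromosome 1 from 62958418 to 63114667 and fell by 31.5% in the authors' deposited table, a log2 fold change of -0.55 (adjusted p = 2.33e-38), at 69.2 CPM. Its 20 closest measured genes had a median of 0.02. Ino80c, a subunit of the conserved core, fell by 11.6% in the authors' deposited table (adjusted p = 0.000373). The ATPase gene Ino80 was at -0.06 (adjusted p = 0.185), Ino80b at -0.12 (adjusted p = 0.147) and Ino80e at 0.00 in the authors' deposited table (adjusted p = 0.984). Ino80b had the lowest level of the 46 members, 9.10 CPM.

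Of 9 measured partners of INO80, 1 rose and 2 fell, or 33.3%, beside 51.7% of all genes. Mcrs1 was at 0.22, Nfrkb at -0.14 and Uchl5, a deubiquitinase gene, at -0.10 in the authors' deposited table. The helicase gene Ruvbl1, whose product forms a ring with that of Ruvbl2 in INO80, SRCAP and TIP60, was at 0.08 in the authors' deposited table (adjusted p = 0.0872). Ruvbl2 itself, chosen after its value was seen, was at 0.04 and did not pass in the authors' deposited table.

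**Figure D4:**
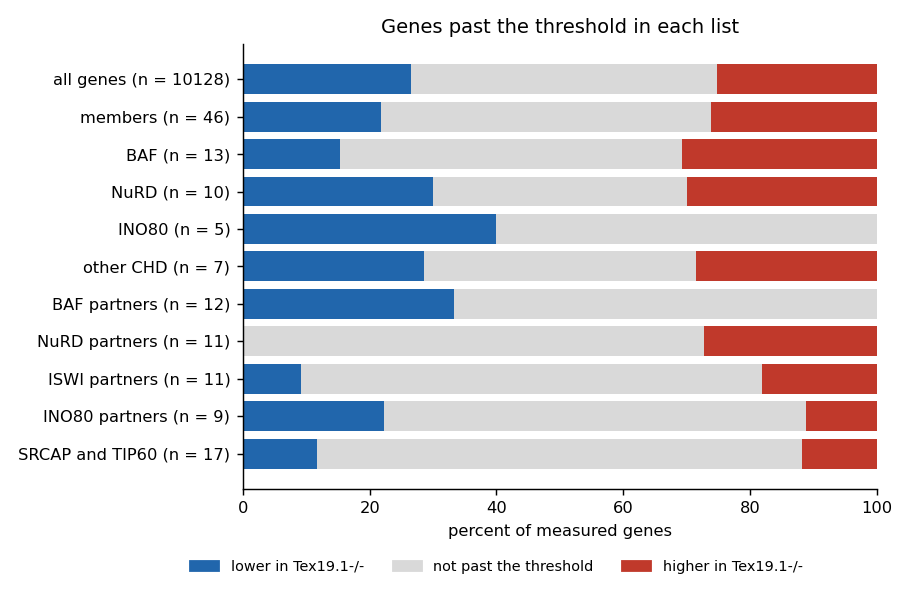
Percent of measured genes that fell (blue), did not pass (light grey) or rose (red) for all genes, the 46 members, 4 groups of members and 5 lists of partners, with the number of genes beside each name. The members, at 47.8% called, lie near the 51.7% of all genes and the shares of single complexes and partner lists rest on few genes each.

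Genes with a Chd symbol outside NuRD, a grouping by name that takes in Chd1l, went both ways. Of these 7, 2 rose and 2 fell, or 57.1% called, beside 51.7% of all genes. Chd7, an ATPase that binds enhancers, lies on chromosome 4 from 8690406 to 8867659 and had the largest rise of the members, 0.33 or 25.4%, in the authors' deposited table (adjusted p = 7.38e-14). Chd1, which keeps the chromatin of ES cells open, stood at 0.26, or 19.6% higher, in the authors' deposited table (adjusted p = 7.13e-10). Chd2, the paralog of Chd1, fell by 11.7% in the authors' deposited table (adjusted p = 4.00e-06), and Chd9, of the same subfamily as Chd7, fell by 14.8% (adjusted p = 1.46e-07). Within each of these pairs of related genes, then, 1 rose and 1 fell. Chd6 at -0.03 and Chd8 at 0.05, also of the subfamily of Chd7 and Chd9, did not pass in the authors' deposited table. Neither did Chd1l, at 0.08 there.

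Among the remaining SNF2-type ATPases, 2 of 4 rose and none fell, or 50.0% called, beside 51.7% of all genes. Hells (LSH), which supports DNA methylation of repeats, was at 0.10 in the authors' deposited table (adjusted p = 0.0316), at 458 CPM the highest level of the members; it did not pass relative to genes of like level (0.04) or to its 20 closest genes (0.07). Smarcal1, which restarts stalled replication forks, was at 0.13 in the authors' deposited table (adjusted p = 0.0129). Atrx, which with Daxx deposits the histone H3.3 at repeats, was at -0.02 and Smarcad1 at 0.00 in the authors' deposited table, with adjusted p-values of 0.645 and 0.998. Of the 5 measured partner genes of ATRX and HELLS 1 rose and 1 fell, or 40.0%, beside 51.7% of all genes. Cdca7l stood at 0.50 (adjusted p = 1.30e-22) and the H3.3 gene H3f3b at -0.14 in the authors' deposited table (adjusted p = 0.000506). The other H3.3 gene, H3f3a, was at 0.07 (adjusted p = 0.0831) and Daxx at 0.01 there.

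Among the genes of bromodomain proteins, which bind acetylated histones, Brd3 was at -0.09 (adjusted p = 0.0311) and Brd2 at 0.02 in the authors' deposited table (adjusted p = 0.711). Brd1, a scaffold of histone acetyltransferase complexes, was at -0.08 (adjusted p = 0.0554), and Brd8, of the TIP60 complex, at -0.01 in the authors' deposited table. Brd3 lost its call relative to its 20 closest genes, whose median was -0.08. It also lost it once a GC and length trend was removed (-0.07) and at an adjusted p under 0.01. Its call held in 3 of 8 alternative settings.

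Grouped by activity, a split made after the values were seen, 18 of the members encode an ATPase of the SNF2 superfamily. Of these 5 rose, 3 fell and 10 did not pass in the authors' deposited table, and of the other 28 members 7 rose and 7 fell. The shares called are 44.4% and 50.0%, beside 51.7% of all genes. A level of at least 200 CPM, chosen after the values were seen, was reached by 6 ATPase genes (Hells, Chd4, Atrx, Smarcad1, Smarca4 and Smarca5). Of these 1 passed, Hells, against 51% of the 796 measured genes of that level. Of all 10 members of that level, ATPase or not, 2 passed, or 20%, so the low share was not particular to the ATPase genes. The 6 ATPase genes had log2 fold changes between -0.06 and 0.10 in the authors' deposited table. The calls in this set changed with the reference: relative to the 20 closest genes Hells lost its call and Smarca4 (0.12, adjusted p = 0.00418) and Atrx (-0.12, adjusted p = 0.0106) passed, and relative to genes of like level Hells lost it and Chd4 passed (-0.10, adjusted p = 0.0244), with p-values that the authors' edgeR values imply. The ATPase calls of 0.2 or more in size were in Chd1, Chd3, Chd5, Chd7 and Chd9, all at 120 CPM or less.

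The members lie on 18 chromosomes, and most stand in regions without a shift of their own. The median log2 fold change of the 20 closest measured genes was between -0.09 and 0.17, and exceeded 0.1 in size for 2 members, Smarcd2 on chromosome 11 and Smarca1 on the X chromosome. Chromosome 11, which also carries Tex19.1, had the highest median of any chromosome, 0.07 over 807 measured genes. Its 3 members, Smarcd2, Chd3 and Smarce1, all rose. For Chd3 the median of the closest genes was 0.097. Relative to their closest genes Chd3 was at 0.20 and Smarce1 at 0.13, and both still passed. Ino80d, Mbd2 and Chd5 lay far below their neighbours, whose medians were 0.02, 0.03 and 0.04. Relative to the 20 closest genes, 12 members were higher and 12 lower, or 52.2%, beside 51.7% of the 9690 genes tested this way. Of the 22 calls 19 remained, and Smarcd2, Brd3 and Hells lost theirs.

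**Figure D5:**
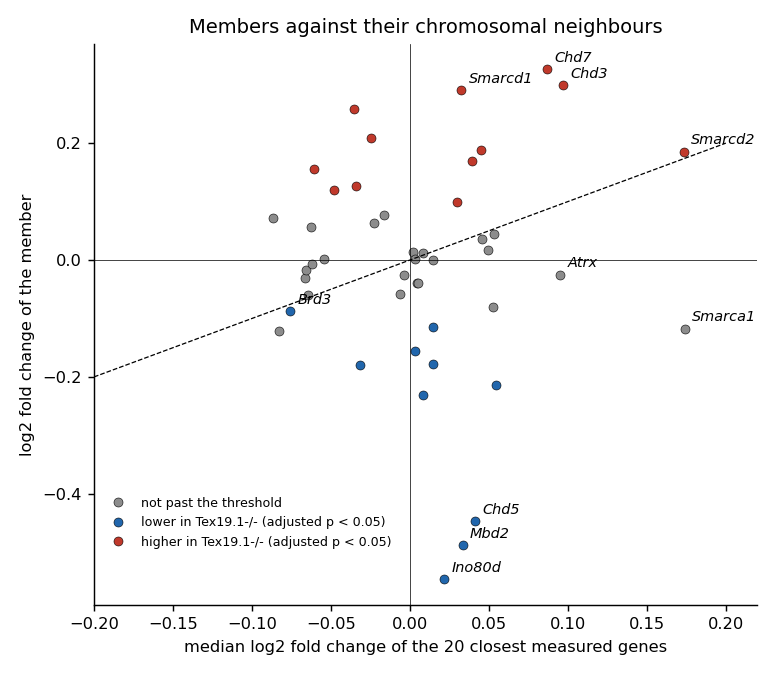
Log2 fold change of each member (y axis) against the median log2 fold change of its 20 closest measured genes on the chromosome (x axis); the dashed line marks equal values and colours give the call. Smarcd2 lies on the line at 0.17, Smarca1 far below it, and Ino80d, Mbd2 and Chd5 stand at the bottom beside neighbours near 0.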

How the data were processed

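RNA from 3 Tex19.1+/- and 3 Tex19.1-/- libraries was sequenced in pairs after TRIzol extraction and a stranded mRNA kit, per the labels' protocols. Per the submitters' processing notes, reads were trimmed with Trim Galore 0.4.1, aligned with TopHat2 2.1.0 to mm10, counted with HTSeq 0.11.2 and compared with edgeR; edgeR's version, its test, the annotation, the low-count filter and the strand setting are not stated in these sources. The authors deposited, per the file headers, a log2 fold change, a mean log2 CPM, a p-value and an adjusted p-value for each of 10128 genes; the lowest level is 3.52 CPM. No count per library was used, so depth is unknown and the planned count model could not be run; the authors' edgeR p-values, adjusted over all genes, stand in its place at a threshold of 0.05, and equal recomputed Benjamini-Hochberg values within 6.7e-05.

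Members came from the symbol rule, which uses no measured value. Their grouping by complex and the partner lists were chosen with earlier results of these data known. A member that enters the counts is not reported here by its own values. Any member may be named; of each partner list, up to 4 genes with the smallest p-value; all other genes are marked as chosen after their values were seen. Positions and exon lengths come from GENCODE M21 (GRCm38, which is mm10); all 46 members matched. Level per length is CPM divided by the union of a gene's exons. Alternatives recomputed a normal statistic from the standard error that each p-value implies, after a shift was subtracted (Python 3.11.15, scipy 1.17.1, statsmodels 0.14.6). Subtraction of the median was tried on simulated data over 10128 genes, with 200 planted changes and normal noise of the implied standard errors. There, 86% of planted log2 changes of 0.25 and 100% of those of 0.5 were recovered. The noise had the form that the method assumes, and far fewer genes changed than in the real data. The other shifts were not simulated, so these shares do not test them.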

Additional observations from a re-analysis of the deposited data

How the results depend on the processing

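The counts of 12 members higher and 10 lower were recomputed in 8 alternative settings. Bonferroni adjustment left 4 higher and 5 lower, or 19.6% of the members, beside 23.8% of all genes (9.6% higher and 14.2% lower). Requiring a log2 fold change of 0.2 or more in size left 5 higher and 5 lower, or 21.7%, beside 29.2% of all genes. In the other 6 settings (adjusted p under 0.01, genes of at least 16 CPM, fold changes relative to all genes, to genes of like level or to the 20 closest genes, and removal of a GC and length trend) 10 to 14 were higher and 9 to 13 lower. In those 6 settings 41.3% to 54.3% of the members were called, beside 41.3% to 51.7% of all genes tested. Of the 22 calls, 8 held in every setting: Actl6a, Chd1, Chd5, Chd7, Chd9, Ino80d, Mbd2 and Smarcd1. Chd3, at 10.3 CPM, and Ino80b, at 9.10 CPM, had no value in the setting of at least 16 CPM. Of the 24 members that did not pass, 15 passed in no setting and 9 in at least 1. Once the GC and length trend was removed, Ino80b (-0.16), Smarca1 (-0.13), Smarcc1 (0.09) and Chd8 (0.09) passed. Relative to the 20 closest genes, Smarca1 (-0.29), Smarcc1 (0.16), Brd1 (-0.13), Atrx (-0.12) and Smarca4 (0.12) passed. Relative to genes of like level, Chd4 (-0.10), Brd1 (-0.10) and Ino80 (-0.09) passed, and relative to all genes Brd1 (-0.08). The cause was not tested. No called member changed sign. The mean levels in the deposited table sum to 85.1% of the total to which CPM values scale; which genes it leaves out, and by what filter, is not stated, so no setting without a filter was run. No paired analysis was possible because the table holds no values per library; for the same reason leaving out single libraries and a test on counts were not run. Depth per library is unknown and limits what can be said of the spread.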

Other observations

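Genes of the SRCAP and TIP60 complexes, which exchange H2A.Z into nucleosomes and acetylate histones and share Actl6a with BAF and INO80, gave few calls: of 17 measured, 2 rose and 2 fell in the authors' deposited table, or 23.5%, beside 51.7% of all genes. Mbtd1, a TIP60 subunit that reads methylated histones, stood at 0.30 (adjusted p = 7.70e-15) and Morf4l1, a chromodomain subunit, at 0.17 in the authors' deposited table (adjusted p = 1.54e-05). The SRCAP subunit gene Znhit1 was at -0.16 (adjusted p = 0.00499) and Epc1, a scaffold of TIP60, at -0.10 (adjusted p = 0.0452) there. The ATPase genes Srcap at 0.10 and Ep400 at 0.03, chosen after their values were seen, did not pass in the authors' deposited table. Over all 65 measured partners of the remodellers, 9 rose and 10 fell, or 29.2%, and the median log2 fold change was 0.03. Whether these shares differ from that of all genes was not tested.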
